A study of Bos taurus with 20 samples.

Results

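Blood vessels in muscle are lined by endothelial cells, and 9 of the 10 genes described here are markers by which those cells are recognised. Endothelial cells hold together through junction proteins, read growth signals through receptors of the VEGF and angiopoietin families, and take up blood lipids for the muscle fibres behind them. The tenth gene, FABP5, encodes a fatty acid binding protein that carries fatty acids inside capillary endothelial cells and is also known from epidermal keratinocytes, macrophages and adipocytes. The junction and adhesion genes were PECAM1, CDH5 and CLDN5, the receptors were KDR, TEK, TIE1 and ENG, and the secreted factors were EGFL7 and VWF. A gene counted as a member when a probe's gene name, or the symbol in its description, was one of these 10. They were carried by 11 probes, 2 for FABP5 and 1 for each of the others, out of 21475 probes and 14912 named genes on the array. The probe of TIE1 carried the older symbol TIE and was matched through its RefSeq transcript.

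The samples were neck muscle of 10 cows taken at a slaughterhouse and kept vacuum packed at 4 °C. The 5 treated animals (DE27, DE29, DE30, DE31 and DE32) had received oral dexamethasone, a synthetic glucocorticoid, at 0.4 mg per animal and day over 31 days, together with the oestrogen estradiol, injected into muscle in weekly doses of 5 mg on 6 occasions. The 5 control animals (K3, K6, K8, K9 and K10) are labelled only as controls. Each animal gave 1 sample after 14 days of storage and 1 at day 0, so the 20 arrays formed 4 groups of 5: treated day 14, control day 14, treated day 0 and control day 0. Both agents were always given together, so their effects cannot be told apart. The sources used here name no breed, age or sex beyond the word cows, and no vehicle for the controls. Values below follow the order in which the animals are listed here.

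Levels are log2 processed signal after each array was scaled to its 75th percentile, so a difference of 1 is a doubling relative to that percentile. A probe's level depends on its own sequence and cannot be set against that of another probe. Levels are therefore compared across samples, for 1 probe or for a fixed set of probes averaged or summed. Every one of the 11 probes was clearly above background in each of the 20 samples and none was saturated, so the endothelial markers were present in every sample and all 10 genes passed the filter on dim probes. In this bulk tissue, more endothelial cells and more RNA per endothelial cell cannot be told apart. Between days, a higher scaled level need not be a gain in RNA, because a smaller fall than that of the percentile gives the same value. FABP5 was chosen by its difference between treated and control animals at day 0, and the day 0 values of the endothelial markers were known as well. Treatment differences at day 0 are therefore given as a description with no test, as are all values that contain them. Treatment at day 14 and the change with storage were tested with limma across 15430 probes, with p-values adjusted by the Benjamini-Hochberg method and a threshold of 0.05. Both days sampled the same animals, so the day 14 test of FABP5 is not independent of its choice.

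Whole-array signal differed by day. The 75th percentile of processed signal lay between 325 and 451 units in treated day 14 arrays, 278 and 534 in control day 14 arrays, 719 and 949 in treated day 0 arrays, and 657 and 936 in control day 0 arrays. It was lower by 1.03 on the log2 scale at day 14 than at day 0. The arrays lay on 6 slides scanned in 3 sessions. Slides 1 and 3 held day 0 samples only, slides 2 and 4 day 14 samples only, and slides 5 and 6 both.

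FABP5 stood higher in treated than in control muscle on both days, and higher at day 14 than at day 0 under both treatments. On the brighter of its 2 probes, day 14 levels were 12.78, 14.06, 12.66, 12.48 and 12.95 in treated animals, against 11.28, 11.45, 11.64, 12.45 and 11.15 in control animals. Day 0 levels were 12.28, 12.02, 11.78, 12.20 and 11.90 in treated animals, against 10.34, 10.49, 10.13, 10.70 and 10.43 in control animals. On either day the lowest treated animal lay above the highest control, although at day 14 DE31, at 12.48, and K9, at 12.45, almost met. DE29 was the highest treated animal after storage, and K9 the highest control on both days. Groups that did not overlap with the treated group higher were found for 1.18% of probes at day 14 and 2.92% at day 0, and FABP5 was the 1 member of 10 among them on either day. At day 0 this follows from the difference by which it was chosen. The day 14 samples came from the same animals, so the day 14 separation is not independent of that choice.

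**Figure D1:**
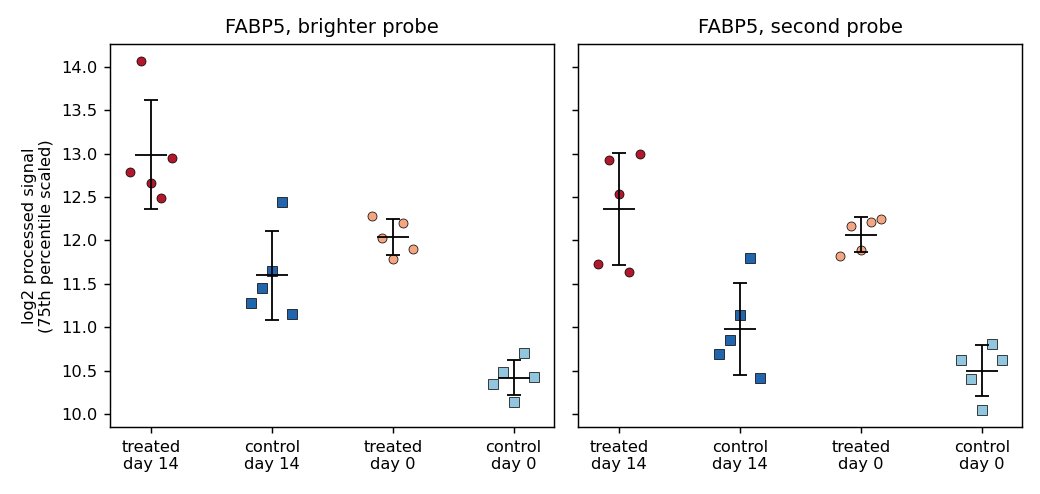
Log2 processed signal of FABP5, scaled to the 75th percentile of each array, on its brighter probe (left) and second probe (right). Points are animals, the bar is the mean and the whiskers are the SD of 5 animals. The treated mean lies above the control mean of the same day on both probes, and single animals overlap on the second probe at day 14.

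The second FABP5 probe agreed on the treatment difference and less so on storage. Day 14 levels on it were 11.73, 12.92, 12.53, 11.64 and 13.00 in treated animals, against 10.69, 10.85, 11.14, 11.80 and 10.41 in control animals. Day 0 levels were 11.82, 12.16, 11.89, 12.22 and 12.24 in treated animals, against 10.63, 10.40, 10.05, 10.80 and 10.62 in control animals. At day 14 DE27 and DE31 lay below K9, so the groups overlapped on this probe, while at day 0 they did not.

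At day 14, FABP5 was higher in treated animals by 1.39 ± 0.33 log2 (SE, n = 5 each, 2.63-fold), with an unadjusted limma p of 0.00131 and an adjusted p of 0.201, which missed the threshold. The second probe gave 1.38 ± 0.34 (adjusted p = 0.221 with limma). These p-values carry the limit that the same animals chose FABP5 at day 0. Of all probes, 0.0713% (11) passed in this comparison and 1610 had an unadjusted p under 0.05, and 0 of the 10 members passed, with 1, FABP5, under 0.05 before adjustment. Within the slides that held both groups at day 14, the FABP5 difference was 1.97 on slide 2, 0.13 on slide 4 and 1.80 on slide 5. The control array on slide 4 was K9, the highest control. At day 0 the difference, which chose the gene, was 1.62 ± 0.15 (3.07-fold), and within slides it was 1.61, 1.58 and 1.85.

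With storage, FABP5 rose by 1.06 ± 0.18 over all animals (2.09-fold, limma adjusted p = 7.62e-05), an average over both treatments that does not use the treatment difference. The fit takes part of its spread from the day 0 arrays that chose FABP5. The SD there was 0.20 in treated and 0.21 in control animals, against 0.62 and 0.51 at day 14. The p is therefore given with that limit and not read as a test. FABP5 was higher at day 14 in 10 of 10 animals on the brighter probe, a pattern shown by 13.3% of probes. On the second probe the change was 0.39 ± 0.19 (limma adjusted p = 0.0942), in 7 of 10 animals, and the mean of both probes rose by 0.73. The change was 0.95 ± 0.28 in treated and 1.18 ± 0.24 in control animals on the brighter probe, given as a description because those fits use the day 0 arrays that chose the gene. The treated change minus the control change was -0.23 ± 0.35, a description of 10 within-animal changes.

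Among the junction and adhesion genes, treated and control animals overlapped on both days. PECAM1 is an adhesion receptor of endothelial cells, platelets and leukocytes. Its day 14 levels were 10.00, 11.51, 10.07, 10.18 and 11.30 in treated animals, against 11.31, 10.42, 10.67, 11.37 and 9.73 in control animals. At day 0 they were 10.28, 9.82, 9.59, 9.63 and 10.24 in treated animals, against 9.85, 10.13, 9.39, 9.60 and 10.08 in control animals. DE29 and DE32 stood more than 1 log2 unit above the other treated animals at day 14, and K3 and K9 led the controls, so that each group spread over more than the distance between groups.

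CDH5 is VE-cadherin, the adherens junction protein of endothelium. It measured 9.95, 11.69, 10.50, 10.47 and 11.44 in treated animals at day 14, against 11.54, 11.18, 10.65, 11.54 and 10.18 in control animals. The day 0 values were 10.28, 10.40, 10.01, 10.40 and 10.44 in treated animals, against 10.11, 10.41, 9.68, 9.82 and 9.55 in control animals. At day 0 only K6 and K3 among controls reached the range of the treated animals, whereas at day 14 both groups covered nearly the same range. CLDN5, the claudin of endothelial tight junctions, measured 8.80, 9.72, 9.09, 9.16 and 9.85 in treated animals at day 14, against 9.76, 9.90, 9.37, 9.94 and 8.37 in control animals. Its day 0 values were 10.77, 8.48, 8.35, 8.20 and 9.03 in treated animals, against 8.78, 8.55, 7.70, 8.20 and 9.02 in control animals. DE27 at day 0 was the highest CLDN5 value of all 20 arrays, and the same animal was the lowest treated one at day 14.

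The receptors followed a similar course. KDR is the main receptor for VEGF on endothelial cells. Day 14 levels of KDR were 9.29, 10.93, 9.81, 9.11 and 10.40 in treated animals, against 9.96, 9.58, 9.36, 10.01 and 8.88 in control animals. Day 0 levels of KDR were 8.79, 9.24, 9.07, 9.34 and 9.29 in treated animals, against 8.79, 8.84, 8.37, 8.57 and 8.09 in control animals. At day 0 only DE27 fell within the control range, and at day 14 the groups overlapped widely. ENG, or endoglin, is a co-receptor for TGF-beta and BMP ligands. After storage it measured 13.44, 13.88, 12.71, 12.93 and 13.30 in treated animals, against 12.66, 13.00, 12.75, 13.50 and 12.14 in control animals. Before storage it measured 13.06, 11.71, 12.10, 12.13 and 11.96 in treated animals, against 10.99, 11.52, 11.60, 11.59 and 11.83 in control animals. At day 0 DE29 alone lay below the highest control, K10.

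TEK is the receptor for angiopoietins, and TIE1 is its partner with no ligand of its own established. TEK measured 8.70, 10.06, 9.71, 9.08 and 9.89 in treated animals at day 14, against 8.92, 8.73, 8.99, 9.74 and 8.58 in control animals. At day 0 TEK measured 8.28, 9.44, 8.999, 8.41 and 9.01 in treated animals, against 8.80, 8.51, 8.66, 8.74 and 8.27 in control animals. DE29, DE32 and DE30 were near or above the highest control at day 14, and DE27 was below most of them. TIE1 measured 7.50, 8.35, 6.81, 7.08 and 8.16 in treated animals at day 14, against 7.80, 7.88, 7.33, 8.08 and 6.63 in control animals. At day 0 TIE1 measured 5.82, 6.99, 6.51, 6.38 and 6.29 in treated animals, against 6.72, 6.44, 6.38, 6.33 and 6.02 in control animals. Treated animals held both the highest and the lowest TIE1 value of day 0.

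EGFL7 is a secreted, matrix-bound factor of endothelial cells, and VWF is the clotting glycoprotein they store and release. EGFL7 measured 14.45, 15.54, 14.48, 14.45 and 15.22 in treated animals at day 14, against 15.03, 14.52, 14.81, 15.61 and 14.07 in control animals. At day 0 EGFL7 measured 14.15, 14.01, 13.65, 13.52 and 13.97 in treated animals, against 13.81, 13.62, 13.26, 13.62 and 13.46 in control animals. Under both treatments every day 14 value of EGFL7 except that of K10 exceeded every day 0 value of all 10 animals. VWF measured 10.62, 10.72, 10.59, 11.40 and 11.13 in treated animals at day 14, against 10.67, 10.69, 11.32, 11.75 and 10.27 in control animals. At day 0 VWF measured 10.38, 9.98, 10.48, 10.27 and 9.68 in treated animals, against 8.96, 9.96, 9.92, 10.31 and 10.80 in control animals. K3 at day 0 was more than 1 log2 unit below the treated animals' median.

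**Figure D2:**
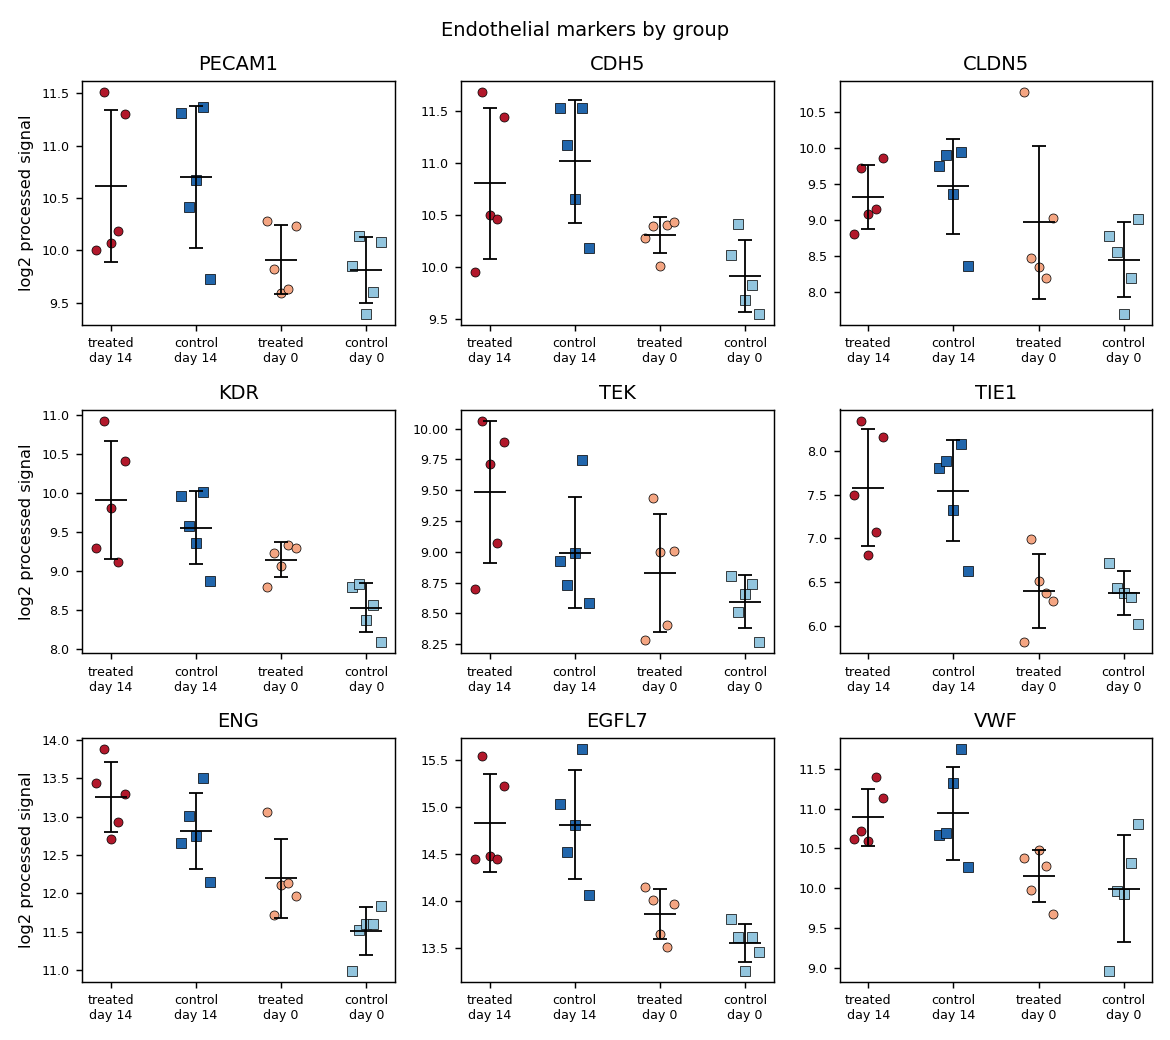
Log2 processed signal of the 9 endothelial markers by group, scaled to the 75th percentile of each array. Points are animals, bars are means and whiskers the SD of 5 animals, and each panel has its own axis. In every panel the day 14 mean lies above the day 0 mean of the same treatment, and treated and control samples of a day overlap in every panel.

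Between treated and control animals at day 14, no marker passed the test. The differences were 0.49 for TEK, 0.44 for ENG, 0.35 for KDR, 0.03 for TIE1, 0.02 for EGFL7, -0.05 for VWF, -0.09 for PECAM1, -0.14 for CLDN5 and -0.21 for CDH5, with SEs between 0.29 and 0.40 and limma adjusted p between 0.607 and 0.987. Their median was 0.02, beside 0.04 over all probes. Within slide 4, where K9 was the control, all 9 markers were lower in treated animals (-0.35 for TEK to -1.24 for PECAM1), and within slide 5, where K10 was the control, all 9 were higher (0.87 for VWF to 1.57 for PECAM1). On slide 2 they lay between -0.64 for CLDN5 and 0.65 for ENG and TEK.

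At day 0, as a description, all 9 markers lay above 0, with a median of 0.30 beside -0.01 over all probes. ENG was higher in treated animals by 0.69 ± 0.25, KDR by 0.61 ± 0.18, CLDN5 by 0.52 ± 0.46 and CDH5 by 0.39 ± 0.18. EGFL7 differed by 0.30 ± 0.16, TEK by 0.23 ± 0.22, VWF by 0.16 ± 0.31, PECAM1 by 0.10 ± 0.20 and TIE1 by 0.02 ± 0.21. When 1 animal was left out at a time, the lowest value was -0.13 for TIE1, -0.09 for VWF and just under 0 for PECAM1, and the other markers stayed above 0. The FABP5 difference exceeded that of any marker at day 14, where it missed the threshold. It did so at day 0 as well, but that difference chose the gene, so its rank there is no result. The day 14 rank comes from the same animals and is not independent of that choice.

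The markers rose together with storage. Over all animals, 8 of 9 markers rose, beside 31.2% of all probes that rose and 23.3% that fell. With FABP5, whose p carries the limit given above, the count was 9 of 10 members. The marker median was 0.84, beside 0.10 over all probes. ENG rose by 1.18 ± 0.19 (2.27-fold, limma adjusted p = 4.27e-05), TIE1 by 1.17 ± 0.21 (limma adjusted p = 1.10e-04) and EGFL7 by 1.11 ± 0.18 (limma adjusted p = 4.59e-05). These 3 and TEK were higher at day 14 in 10 of 10 animals, as was FABP5. KDR rose by 0.89 ± 0.20, VWF by 0.84 ± 0.21, CDH5 by 0.80 ± 0.22, PECAM1 by 0.79 ± 0.23 and TEK by 0.53 ± 0.19, with limma adjusted p between 0.0011 and 0.025. KDR, VWF and CDH5 were higher in 9 of 10 animals and PECAM1 in 8. CLDN5 was higher by 0.69 ± 0.30, in 8 of 10 animals, and missed the threshold (limma adjusted p = 0.056). Without DE27, whose CLDN5 was high at day 0, it rose by 0.98 (limma adjusted p = 0.000979), and TEK missed the threshold without K9 (0.48, limma adjusted p = 0.0511) or DE32 (0.49, limma adjusted p = 0.055).

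**Figure D3:**
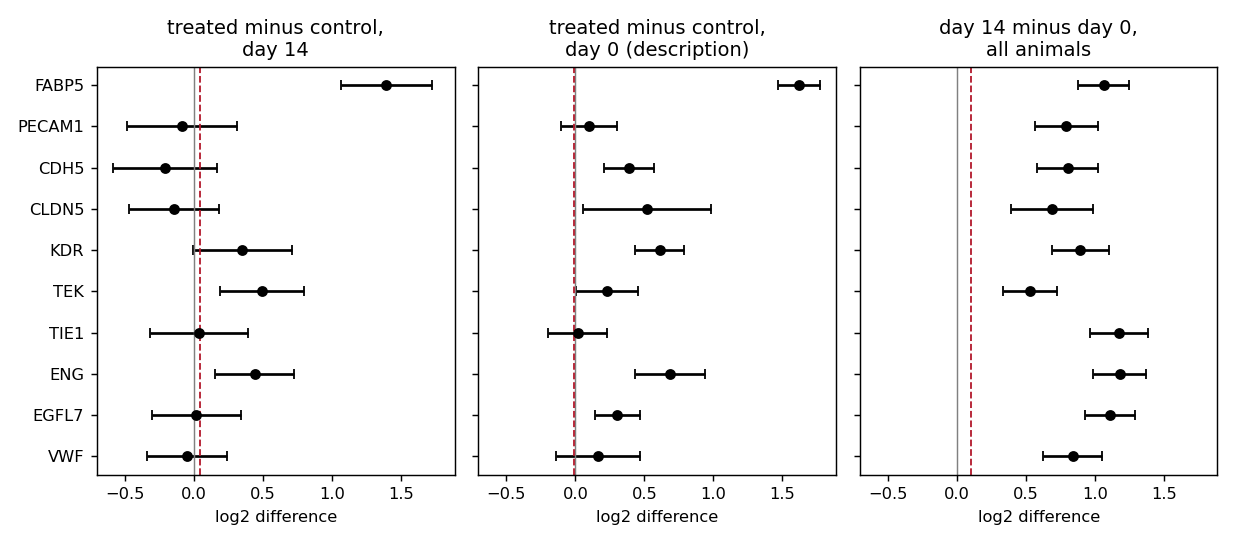
Log2 differences of the 10 members for treatment at day 14, treatment at day 0 and storage over all animals. Points are differences, whiskers 1 SE, the grey line is 0 and the dashed line the median of all 15430 probes. FABP5 lies furthest right in the treatment panels, of which the day 0 panel shows the difference that chose it. In the storage panel all 10 members lie above the median of all probes.

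"Rose" here is relative to the 75th percentile. In unscaled log2 signal the day 14 minus day 0 difference was 0.15 for ENG and TIE1, 0.09 for EGFL7, 0.04 for FABP5 on its brighter probe, -0.13 for KDR, -0.19 for VWF, -0.22 for CDH5, -0.23 for PECAM1, -0.34 for CLDN5 and -0.50 for TEK, against -1.03 for the percentile itself. The second FABP5 probe gave -0.64. The unscaled signal of the members thus moved less than that of the percentile they are set against. Centring each array on its median moved the median of all probes by -0.31 and left the markers at 0.53. The markers lay 0.74 above the median of all probes under either scaling. That gap could not change, because both scalings shift all probes of an array alike. On that scale 7 of the 10 members rose and PECAM1 (0.49), TEK (0.22) and CLDN5 (0.38) did not pass.

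Slide and day overlap in part. With slide as a block, which draws on slides 5 and 6, the markers' median was 0.71, 1 of 10 members (TIE1, 1.47) passed, and CLDN5 was -0.06. DE32, measured at both days on slide 5, had all 10 members higher at day 14, by 0.83 (CLDN5) to 1.87 (TIE1). On slide 6, the mean of K3 and K8 at day 14 lay above K10 at day 0 for all 10 members, by 0.19 (VWF) to 1.57 (KDR), although VWF in K3, at 10.67, was below K10, at 10.80. The part of the slide in the storage difference beyond these values was not tested.

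Within treatments, 4 of 9 markers rose with storage in treated animals (ENG, TIE1, EGFL7 and VWF), beside 17.8% of all probes, and 7 of 9 in control animals (all but TEK and VWF), beside 21.7%. The marker medians were 0.73 in treated and 1.03 in control animals, while the median over all probes was 0.10 in treated and 0.09 in control animals. Among treated animals ENG rose by 1.06 ± 0.29, TIE1 by 1.18 ± 0.32, EGFL7 by 0.97 ± 0.25 and VWF by 0.73 ± 0.22. Among control animals ENG rose by 1.30 ± 0.25, EGFL7 by 1.25 ± 0.26, TIE1 by 1.17 ± 0.27 and CDH5 by 1.10 ± 0.28. The counts leaned on single animals: in treated animals 1 marker passed without DE29, 2 without DE31 and 0 without DE32, and in control animals 4 passed without K9. Centred on the array median, 0 of 9 markers passed in treated and 5 of 9 in control animals, and with slide as a block 0 passed in either. The slide block compares days only on slide 5 in treated animals (1 array against 1) and on slide 6 in control animals (2 against 1). These are too few arrays to decide, and the marker medians were 1.11 in treated and 0.91 in control animals. With the animal as a fixed replicate block, TEK passed (limma adjusted p = 0.0282) and VWF did not (0.0642) in treated animals, and PECAM1 (0.0675) and CLDN5 (0.0574) no longer passed in control animals. Of the 9 markers, EGFL7 and VWF did not overlap between day 14 and day 0 in treated animals, beside 12.3% of probes. In control animals ENG, EGFL7 and KDR did not overlap, beside 13.1%. As a description, FABP5 did not overlap between days under either treatment on its brighter probe, but did under both on its second probe. The treated change minus the control change ran from -0.66 ± 0.64 for CLDN5 and -0.60 ± 0.35 for CDH5 to 0.26 ± 0.23 for TEK and is given as a description. Over all probes 0 (0%) passed that comparison with limma, with 583 under an unadjusted p of 0.05.

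As a group the markers spread more at day 14 than at day 0, with CLDN5 and ENG in treated and VWF in control muscle as exceptions, and they shared an order among animals at day 14. The mean of the 9 markers had an SD over animals of 0.50 in treated and 0.51 in control muscle at day 14, against 0.15 in treated and 0.12 in control muscle at day 0. The median SD of all probes was 0.43 in treated and 0.40 in control muscle at day 14, against 0.33 in treated and 0.31 in control muscle at day 0. Among day 14 controls K9 was highest and K10 lowest for 9 of 9 markers, an order shown by 9.77% of probes. Among day 14 treated animals DE29 and DE32 were the 2 highest for 7 of 9 markers, as for 16.6% of probes. At day 0 no animal led more than 4 markers in its group. Among day 0 controls K3 was in the top 2 for 6 of 9 markers and K6 for 5. Among day 0 treated animals DE27 and DE32 were each in the top 2 for 5. The day 14 orders were picked from these same values and are a description.

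FABP5 was also set against the markers on the same array. Subtracting the mean of the 9 markers from FABP5 on each array gives a value whose absolute size depends on the probes and whose differences between groups can be read. It lay between 1.76 and 2.69 in treated animals at day 14, against 0.43 and 1.28 in control animals. At day 0 it lay between 1.92 and 2.39 in treated animals, against 0.69 and 1.05 in control animals. Treated and control animals did not overlap in this value on either day. At day 0 this follows from the choice of FABP5, and the day 14 arrays are of the same animals. The group means were 2.24 in treated and 0.95 in control animals at day 14, and 2.06 in treated and 0.78 in control animals at day 0. Because FABP5 was chosen at day 0, these values are a description and carry no test.

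**Figure D4:**
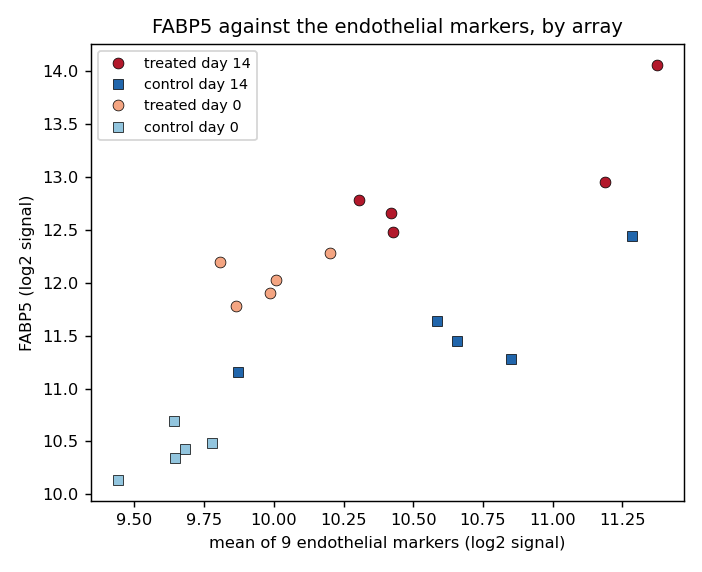
FABP5 (brighter probe) against the mean of the 9 endothelial markers on each of 20 arrays, both in log2 processed signal. Each point is 1 array. Treated arrays (circles) lie above control arrays (squares) at a like marker mean, and day 14 arrays extend to the right.

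Other endothelial genes were read against the 31.2% of all probes that rose with storage and the 23.3% that fell. Of 25 tested endothelial identity genes outside the members, 17 rose and 0 fell (median 0.72), among them ARHGEF15 (1.46 ± 0.20), the matrix protein MMRN2 (1.26 ± 0.20), the guidance receptor ROBO4 (1.18 ± 0.22) and the sialomucin PODXL (1.05 ± 0.19). Of 20 transcription factors of endothelium, 11 rose and 0 fell (median 0.72), led by MEF2C (1.83 ± 0.17), which muscle fibres use as well, and including TAL1 (0.99 ± 0.18), ETS1 (0.92 ± 0.22) and GATA2 (0.71 ± 0.17). Centred on the array median, 10 identity genes and 7 transcription factors rose, and with slide as a block 2 of each did.

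Of 26 VEGF, angiopoietin, Notch and TGF-beta genes, 7 rose and 2 fell (median 0.41), so that a smaller share rose than the 31.2% of all probes. The receptors NOTCH4 (1.36 ± 0.23), NOTCH1 (1.19 ± 0.22) and FLT4 (1.38 ± 0.38) and the ligand TGFB1 (0.69 ± 0.16) rose, while the receptor TGFBR2 (-0.73 ± 0.14) and ANGPTL2 (-0.49 ± 0.18) fell. Centred on the array median, 4 of these genes rose and 8 fell. The ligand VEGFA (0.02 ± 0.25), ANGPT1 (-0.30 ± 0.21) and ANGPT2 (0.55 ± 0.28) did not pass. Of 18 adhesion and activation genes, 4 rose and 1 fell (median 0.04): the integrin ITGA5 (1.32 ± 0.20), the junction molecules JAM2 (1.20 ± 0.24) and F11R (1.01 ± 0.19) and CD47 (0.61 ± 0.13) rose, and the integrin ITGAV (-0.93 ± 0.10) fell. Both shares were below those of all probes. Centred on the array median, 4 rose and 4 fell.

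Fatty acid genes other than FABP5 were set beside the 31.2% of all probes that rose and the 23.3% that fell. Of 18 uptake and transport genes, 4 rose and 1 fell, both smaller shares than over all probes (median -0.08): the transporters SLC27A4 (0.85 ± 0.12) and SLC27A3 (0.85 ± 0.22) and the acyl-CoA synthetases ACSL3 (0.90 ± 0.25) and ACSL5 (0.47 ± 0.17) rose, and the lipoprotein receptor VLDLR (-0.74 ± 0.20) fell. Among 14 fatty acid responsive receptors and targets, PPARG rose (0.88 ± 0.19), and RXRG (-1.64 ± 0.21) and ACADM (-0.97 ± 0.24) fell. Centred on the array median, 3 uptake genes rose and 4 fell, and 1 of the receptors and targets rose and 5 fell. The other fatty acid binding proteins tested were FABP3, the form of heart and skeletal muscle, FABP4, the adipocyte form, FABP7, the brain form, and PMP2, the myelin form, and 0 of these 4 passed with storage. At day 14 the treatment difference was 0.79 ± 0.61 for FABP3, -0.56 ± 0.97 for FABP4, 0.16 ± 0.69 for FABP7 and -1.14 ± 0.73 for PMP2, and none passed. At day 0 FABP3 was higher in treated animals by 1.48 ± 0.34 and FABP4 by 0.45 ± 0.83, as a description.

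**Figure D5:**
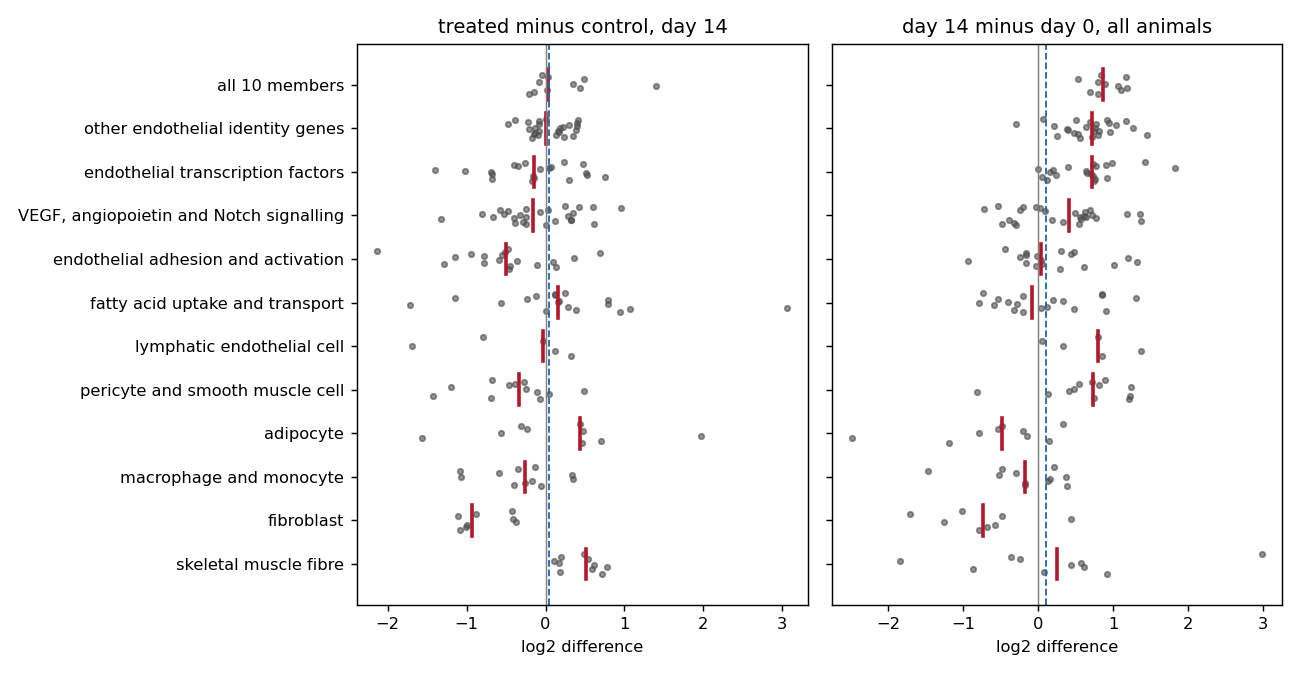
Log2 differences of listed genes for treatment at day 14 (left) and storage over all animals (right). Each dot is 1 gene, red bars are list medians, the grey line is 0 and the dashed line the median of all probes. In the storage panel the medians of the members, the identity genes, the transcription factors and the signalling genes lie right of the dashed line, and that of the adhesion genes, at 0.04, lies left of it. In the treatment panel the adhesion genes have a median of -0.50 and the identity genes one of 0.00.

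Treatment at day 14 left 0 genes past the limma threshold in each of these lists, with 0 of 25 identity genes, 6 of 20 transcription factors, 3 of 26 signalling genes, 6 of 18 adhesion genes, 4 of 18 uptake genes and 3 of 14 receptors and targets under an unadjusted p of 0.05, beside 1610 of 15430 probes. The genes of smallest p, in list order, were TFPI (0.42 ± 0.20), an inhibitor of clotting, HIF1A (-0.69 ± 0.21), a hypoxia factor, HEY1 (-1.32 ± 0.34), a Notch target, PLAT (-1.14 ± 0.32), the tissue plasminogen activator, ANGPTL4 (3.06 ± 0.71, limma adjusted p = 0.189), an inhibitor of lipoprotein lipase, and UCP3 (1.69 ± 0.45), a mitochondrial carrier. VEGFA was higher in treated animals by 0.96 ± 0.40 at day 14 (limma adjusted p = 0.443) and, as a description, by 1.25 ± 0.26 at day 0.

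Markers of other cells that neck muscle holds were measured too, beside the 31.2% of all probes that rose and the 23.3% that fell. Of 12 pericyte and smooth muscle genes, which surround the endothelium, 8 rose and 1, DES, which muscle fibres also make, fell (median 0.73), and their summed signal lay between 66393 and 103461 units in treated day 14 muscle and 79865 and 165827 in control day 14 muscle, against 73708 and 111641 in treated day 0 muscle and 104409 and 127754 in control day 0 muscle. The sum of the 9 endothelial markers lay between 36056 and 74849.6 units in treated and 26218.5 and 73954.4 in control muscle at day 14, against 20946 and 33115.8 in treated and 16408 and 20378.9 in control muscle at day 0. Such sums lean on the brightest probes, which among the endothelial markers were those of EGFL7 and ENG. Red blood cell genes rose for 3 of 4 (median 1.06), lymphocyte genes for 4 of 6 (0.66) and lymphatic endothelial genes for 2 of 5 (0.80). Fibroblast genes fell for 3 of 8 (median -0.74), adipocyte genes for 2 of 9 (-0.49) and macrophage genes for 1 of 11 (-0.17), the last 2 being smaller shares than over all probes. Skeletal muscle fibre genes were mixed, with 4 of 10 that rose and 2 that fell. Centred on the array median, 4 pericyte and smooth muscle, 2 red blood cell, 0 lymphocyte and 1 lymphatic genes rose, and 7 fibroblast, 4 adipocyte and 3 macrophage genes fell. The part of these cells in the endothelial change was not tested.

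At day 14, list medians of markers of other cells differed from 0 between treated and control muscle, without any gene passing the test. The median difference was 0.51 over 10 skeletal muscle fibre genes, of which 10 lay above 0, -0.94 over 8 fibroblast genes, of which 0 did, and -0.33 over 12 pericyte and smooth muscle genes, of which 2 did, beside 0.04 over all probes. In each list 0 genes passed with limma, and 2 muscle fibre genes, 0 fibroblast genes and 1 pericyte or smooth muscle gene had an unadjusted p under 0.05, beside 1610 of 15430 probes. Summed muscle fibre signal lay between 1523692 and 2130748 units in treated and 1184845 and 1559153 in control muscle, and summed fibroblast signal between 10000.6 and 43813.6 in treated and 20464 and 100576 in control muscle. Both sums overlapped between treated and control muscle. The part of these cells in the treatment differences of FABP5 and the markers was not tested.

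FABP5 is also known from adipocytes, macrophages and keratinocytes, and markers of all 3 were measured. At day 14 the medians were 0.43 over 9 adipocyte genes, -0.26 over 11 macrophage genes and 0.36 over 6 keratinocyte genes, against 1.39 for FABP5. In each list 0 genes passed with limma, and 2 adipocyte genes, 1 macrophage gene and 1 keratinocyte gene had an unadjusted p under 0.05, beside 1610 of 15430 probes. Summed adipocyte signal lay between 27781 and 74258 units in treated and 26872 and 48822 in control muscle at day 14. Summed macrophage signal lay between 4602 and 13277 in treated and 3985 and 15481 in control muscle, and summed keratinocyte signal between 6896 and 23641 in treated and 6167 and 8842 in control muscle. All 3 sums overlapped between treated and control muscle. Of the listed genes, 5 to 9 of 9 adipocyte, 9 to 11 of 11 macrophage and 5 or 6 of 6 keratinocyte genes were well above background on an array, and the part of these cells in the FABP5 difference was not tested.

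Over the 20 arrays, among 9361 named probes well above background on all of them, the levels most like those of FABP5 were of TNFSF10 (Pearson r = 0.94), PSMB9 (0.91), GNB3 (0.91) and TRIB2 (0.90). After group means were removed they were RAPGEF3 (0.87), ELL3 (0.87), RIPK1 (0.84), RNF215 (0.84) and TSPAN13 (0.84). The mean of the 9 markers was most like CORO2B (0.97), MAP3K11 (0.96), EFNB2 (0.96), PPP1R18 (0.96) and USHBP1 (0.95), and after removal of group means PDE2A (0.95), CORO2B (0.94), PPP1R18 (0.94), PRKD2 (0.93) and DLC1 (0.93). None of the genes named for FABP5 was among those named for the markers, which says little because lists this short out of 9361 probes would seldom share a gene. The points of these descriptive correlations share arrays, scaling and the 4 groups. Among the members, after removal of group means, PECAM1 and EGFL7 (0.91) and CDH5 and KDR (0.92) varied most alike, while VWF followed KDR (-0.10) and CDH5 (0.03) little, and FABP5 was closest to EGFL7 (0.78) and ENG (0.70).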

How the data were processed

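RNA of 20 muscle samples was hybridised to 1-colour Agilent bovine arrays, 1 sample each. Per the file headers, the deposited intensity values were made with Agilent Feature Extraction, with background subtraction and detrending per spot and no normalization between arrays, and the deposited processed intensity is rounded. The authors' series table of intensity values, whose normalization is not given in the sources used here, correlated with these at r = 0.9986 or more on each array (log2) and served as an alternative. R 2.11.1 is named per the submitters' processing notes. Groups came from the sample titles and labels. A further description field disagreed with the titles on the day and was not used, and 1 title written D31 was read as DE31.

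Control spots and 935 outlier spots were left out, spots of a probe were averaged, and log2 processed intensity was centred on the 75th percentile of each array. Probes well above background on at least 5 arrays were tested (15430, with 6045 removed) with limma 3.58.1 in R 4.3.3 (lmFit and eBayes, Benjamini-Hochberg adjustment, threshold 0.05). The storage fit over all animals had treatment as a covariate. The number of arrays limits the precision. The test was checked on simulated data. Summaries used Python 3.11.15, pandas 2.3.3 and numpy 2.4.6. Of the probes, 16458 had a symbol, in part through RefSeq names, and 280 with conflicting names were left unnamed. A gene is given on its brightest probe.

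All members were named whatever their values. From each pathway list, up to 4 genes of smallest p past the threshold in each direction were named for storage over all animals, and 1 gene of smallest p where none passed. Fatty acid binding proteins, VEGFA, ANGPT1 and ANGPT2 were named whatever their values, and FLT1 was not matched to a probe. FABP1, FABP2 and FABP9 did not pass the filter on dim probes. For likeness, the 5 genes of highest r were named, except 1 that is not reported here. The members and lists were chosen with earlier results of these data known. The same animal gave both days, so animal numbers pair the samples, although deviations from the group means correlated between days by only -0.15 to 0.28. The alternatives were normexp background correction, 2 other filters, quantile normalization, centring on the array median, the series table, the mean of a gene's probes, slide, scan session and animal as blocks, and each animal left out in turn.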

Additional observations from a re-analysis of the deposited data

How the results depend on the processing

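The number of probes past the threshold for treatment at day 14 was 11, and it was 1 with normexp, 7 with only probes well above background on all arrays, 0 with slide and 3 with scan session as a block, and 108 with the animal as a random replicate block over all arrays. For storage over all animals it was 8418, against 13298 with no filter and 2274 with slide as a block. For storage in treated animals it was 4563, against 8802 with normexp, 8733 with no filter and 0 with slide as a block, and in control animals 6040, against 197 with slide as a block. For treatment at day 0 it was 378, against 230 with no filter and 203 with the random replicate block, and for treatment over both days 521, against 139 with normexp and 346 with no filter. With 1 animal left out, these counts ran from 0 to 12 for treatment at day 14, 7426 to 9060 for storage over all animals, 2428 to 5703 in treated animals, 3239 to 6661 in control animals, 135 to 312 for treatment at day 0 and 220 to 529 over both days. The marker median then ran from -0.19 to 0.17 for treatment at day 14, 0.74 to 0.94 for storage over all animals, 0.61 to 0.94 in treated and 0.92 to 1.31 in control animals, 0.23 to 0.37 for treatment at day 0, 0.08 to 0.25 over both days and -0.50 to -0.09 for the difference in storage change. At day 14 the treatment difference changed sign for PECAM1 (0.10 with slide and 0.10 with session), EGFL7 (-0.0913 with quantile normalization and -0.0774 in the series table) and VWF (0.0947 with normexp and 0.0114 with session), and with 1 animal left out it ran from -0.33 to 0.0821 for PECAM1, -0.43 to 0.00558 for CDH5, -0.19 to 0.23 for TIE1, -0.17 to 0.22 for EGFL7 and -0.22 to 0.15 for VWF. CLDN5 with storage was -0.0614 with slide as a block. The cause was not tested. FABP5 at day 14 lay between 1.13 and 1.61 with 1 animal left out, and its limma adjusted p between 0.147 and 0.857 in the settings fitted on day 14 arrays, none of which passed. It was 0.0172 with the random replicate block, which is not read as a test because that fit takes part of its spread from the day 0 arrays that chose FABP5. With the animal as a fixed replicate block, 8 of 9 markers rose with storage over all animals, and 9 of 10 members with FABP5 counted. Slide and session blocks could not be fitted for treatment over both days or for the difference in storage change. All 9 markers were well above background on every array.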
